A study of Mus musculus with 12 samples.

Results

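The genes described here are the nuclear-encoded subunits of the mouse respiratory chain, with the assembly factors that share their symbol prefixes. They were taken from the GENCODE M21 annotation of mm10 as all symbols beginning with Ndufa, Ndufb, Ndufc, Ndufs, Ndufv, Sdh, Uqcr, Cox4, Cox5, Cox6, Cox7, Cox8 or Atp5, leaving out Ndufb9 and symbols that contain -ps. A mean of at least 1 CPM (counts scaled to a common library total) over the 12 libraries was also required. Of 101 matching symbols, 91 passed, among 55833 features in the files. The 10 symbols below the limit were 6 coding genes and 4 pseudogenes. Just inside the limit were Cox7a1 at 1.70 CPM and Sdhaf1 at 4.05 CPM, and just outside it Ndufb4c at 0.893 CPM and Ndufs6b at 0.564 CPM. Membership rested on symbol and mean level and on no difference between groups.

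RNA with poly-A tails was measured in 12 libraries, 2 in each of 6 groups. SSTC3 libraries came from cells given SSTC3, which is described as a small-molecule activator of CK1α (casein kinase 1α), and DMSO libraries from cells given DMSO, the solvent. The labels call the cells of these 4 libraries bone marrow-derived macrophages (BMDM) with a TREX knockout, numbered TREX1-KO and TREX2-KO in the SSTC3 libraries and TREX3-KO and TREX4-KO in the DMSO libraries. If those numbers mark different knockouts, the knockout and the treatment cannot be told apart. CK1a_OV libraries came from mouse embryonic fibroblasts (MEF) with CK1a overexpression, and OV_control libraries from MEF given the overexpression control. CK1a_siRNA libraries came from MEF with CK1a knockdown, and knockdown_control libraries from MEF given the knockdown control. The genotype label is C57BL/6J in all 12 libraries, the knockout lines included. The sources used here give no dose, time, construct or siRNA sequence. No label says whether the 2 libraries of a group came from separate cultures, so the p-values reflect only how far these libraries differ, and that spread may be technical.

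The respiratory chain passes electrons from NADH through complex I, and from succinate through complex II, to ubiquinone, then through complex III and cytochrome c to oxygen at complex IV. Complexes I, III and IV pump protons out of the mitochondrial matrix, and complex V, the ATP synthase, lets them back in to make ATP. Each complex except II combines nuclear-encoded subunits, made in the cytosol and imported, with a few subunits encoded by mitochondrial DNA. The nuclear-encoded subunits fall into a core that carries redox centres or catalysis and accessory subunits that hold the complex together. In macrophages, the balance between respiration and glycolysis is known to shift with activation, and succinate oxidation by complex II is part of that shift.

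By complex, 43 of the 91 genes belong to complex I, 8 to complex II, 8 to complex III, 15 to complex IV and 17 to complex V. By role, 20 encode core subunits, 55 accessory subunits and 12 assembly factors, and 4 encode isoforms or relatives of complex IV subunits (Ndufa4l2, Cox6a2, Cox7a1 and Cox7a2l). Core here means subunits with redox centres or flavin, the membrane anchors of complex II, and the F1 and c-ring subunits of complex V.

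The libraries held 16063627 to 19427506 assigned counts, and 20266 to 22950 genes had a count. Csnk1a1, which encodes CK1α, had 174 and 172 CPM in CK1a_siRNA libraries, against 322 and 349.5 CPM in knockdown_control libraries, a log2 fold change of -0.96 ± 0.05 (adjusted p = 2.88e-27). The overexpression libraries did not show the rise that their label names. There Csnk1a1 had 229 and 243 CPM in CK1a_OV libraries, against 239 and 236 CPM in OV_control libraries (adjusted p = 0.901), so the group is named here only by its label. The cells labelled BMDM did not carry the macrophage signature. Of 20 macrophage markers, 10 to 12 were at 0 in SSTC3 libraries and 12 to 14 in DMSO libraries, among them Adgre1, Itgam and C1qa in all 4. The summed level of the list was 10.95 and 11.09 CPM in SSTC3 libraries and 9.38 and 9.08 CPM in DMSO libraries, while that of 12 fibroblast markers was 4307 and 4341 CPM in SSTC3 libraries and 5897 and 5664 CPM in DMSO libraries. Of 10 fibroblast markers tested in SSTC3 libraries, 6 were lower and 2 higher at an adjusted p under 0.05, against 26.5% and 27.1% of all genes tested. Fbln1 did not follow the sum, at 119 and 113 CPM in SSTC3 libraries and 109 and 109 CPM in DMSO libraries. The sum of the fibroblast markers was also lower in CK1a_OV libraries (588 and 587 CPM, against 735 and 736 CPM in OV_control libraries) and in CK1a_siRNA libraries (451 and 458 CPM, against 649 and 643 CPM in knockdown_control libraries). Pdgfrb gave 98.9 and 96.6 CPM of it in CK1a_siRNA libraries and 230 and 236 CPM in knockdown_control libraries. Col1a1 overlapped between these groups, at 188 and 204 CPM in CK1a_siRNA libraries and 211 and 201 CPM in knockdown_control libraries. In the overexpression set Pdgfrb overlapped, at 63.6 and 61.7 CPM in CK1a_OV libraries and 63.4 and 63.8 CPM in OV_control libraries. Of 7 fibroblast markers tested in each of these 2 sets, 5 were lower in CK1a_OV libraries and 4 in CK1a_siRNA libraries, with 0 higher. Among all genes tested, 7.57% and 26.4% were lower there. In the knockdown set the macrophage list summed to 302 and 299.8 CPM in CK1a_siRNA libraries and 259 and 254 CPM in knockdown_control libraries, of which Cd68, a lysosomal protein gene, gave 296 and 295 CPM in CK1a_siRNA libraries and 252 and 246 CPM in knockdown_control libraries. The part of these markers in the results below was not tested. In these bulk samples, fewer cells of a type and less RNA per cell cannot be told apart.

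Together the 91 genes took 0.932% and 0.947% of all counts in SSTC3 libraries and 0.978% and 0.957% in DMSO libraries. Their share was 1.05% and 1.01% in CK1a_OV libraries and 1.05% and 1.07% in OV_control libraries, and 1.27% and 1.26% in CK1a_siRNA libraries against 1.37% and 1.31% in knockdown_control libraries. Only in the knockdown and SSTC3 sets did the libraries of the 2 groups not overlap. Per kilobase of exon (CPM divided by the summed length of all annotated exons, averaged over the groups), the median gene of complex IV stood at 89.2 and that of complex III at 75.5, followed by complex V at 52.3, complex I at 30.2 and complex II at 24.3. The most abundant transcripts per kilobase were those of Cox8a (558.5), a small complex IV subunit, Atp5b (416) and Atp5a1 (286), the catalytic β and α subunits of ATP synthase, Cox6a1 (405) and Cox4i1 (212). At the low end were the assembly factors Sdhaf3 (1.197) and Sdhaf1 (1.63), Ndufb2 (1.54), Cox7a1 (3.17) and Atp5s (3.49). Annotated exons include long untranslated and retained segments for some genes, which lowers such values.

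To set shared promoter letters beside the changes, 75 of the 91 genes were matched by symbol to RefSeq windows of GRCm38.p6 that run from 250 bases before to 50 bases after the gene start. The motifs searched, on both strands, were GCGCA followed by any base and GCGC for NRF1, and CCGGAAG for the ETS family, which includes GABP (both known regulators of respiratory genes), and AAGATGGCG for YY1. No motif hit overlapped another in the windows printed here. NRF1 letters were present in 21 of the 75 windows (28%), against 5.19% of 27025 gene windows, ETS letters in 21 (28%, against 9.93%) and YY1 letters in 8 (10.7%, against 1.64%). Windows with NRF1 letters were 4 of 7 in complex II, 6 of 13 in complex V, 9 of 39 in complex I, 1 of 5 in complex III and 1 of 11 in complex IV. The 5 windows below are shown because Atp5g1, Atp5g2 and Atp5g3 encode the same mature c-ring protein, and Sdha and Sdhd encode partners in complex II, while the members of both sets differed in response. All lie on the minus strand and are written 5′ to 3′ along the gene, with motif letters in capitals. Atp5g1 (chr11:96075582-96075881) holds none of the 3 motifs, Atp5g2 (chr15:102670998-102671297) and Atp5g3 (chr2:73911277-73911576) hold 1 NRF1 run each, Sdha (chr13:74350191-74350490) holds 3, and Sdhd (chr9:50603800-50604099) holds 1 NRF1 run and then 1 ETS run, which reads on the opposite strand.
Atp5g1: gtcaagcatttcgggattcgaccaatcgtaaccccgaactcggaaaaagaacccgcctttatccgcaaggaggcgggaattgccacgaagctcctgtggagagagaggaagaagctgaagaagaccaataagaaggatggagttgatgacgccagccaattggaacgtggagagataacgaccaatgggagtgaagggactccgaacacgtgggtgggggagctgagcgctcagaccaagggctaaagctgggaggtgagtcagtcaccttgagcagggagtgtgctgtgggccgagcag
Atp5g2: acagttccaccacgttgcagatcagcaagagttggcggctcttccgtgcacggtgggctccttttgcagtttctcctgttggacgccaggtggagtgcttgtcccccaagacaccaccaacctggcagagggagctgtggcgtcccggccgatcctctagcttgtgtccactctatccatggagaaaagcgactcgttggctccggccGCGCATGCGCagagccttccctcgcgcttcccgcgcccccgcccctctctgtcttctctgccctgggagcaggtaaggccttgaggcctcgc
Atp5g3: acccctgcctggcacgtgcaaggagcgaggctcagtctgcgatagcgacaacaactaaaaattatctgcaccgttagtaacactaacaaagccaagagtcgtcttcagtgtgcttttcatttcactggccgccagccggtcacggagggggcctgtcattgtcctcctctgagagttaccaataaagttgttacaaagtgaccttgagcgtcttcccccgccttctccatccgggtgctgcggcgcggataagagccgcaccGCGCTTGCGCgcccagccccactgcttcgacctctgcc
Sdha: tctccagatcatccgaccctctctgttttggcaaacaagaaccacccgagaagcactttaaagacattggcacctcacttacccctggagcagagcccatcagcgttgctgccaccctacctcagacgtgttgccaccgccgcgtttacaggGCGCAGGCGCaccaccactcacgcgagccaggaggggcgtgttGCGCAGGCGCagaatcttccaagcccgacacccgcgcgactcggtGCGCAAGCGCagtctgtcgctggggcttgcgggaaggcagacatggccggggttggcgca
Sdhd: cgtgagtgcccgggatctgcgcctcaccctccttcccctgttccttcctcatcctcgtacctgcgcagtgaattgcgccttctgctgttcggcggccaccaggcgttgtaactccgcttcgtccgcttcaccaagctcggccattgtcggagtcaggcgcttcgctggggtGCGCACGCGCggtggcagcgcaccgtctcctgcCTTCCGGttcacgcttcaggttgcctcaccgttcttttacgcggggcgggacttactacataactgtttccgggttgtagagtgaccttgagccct
A match to these letters is a description of the window and not a bound site.

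SSTC3 treatment moved a minority of the 91 genes, and by small amounts. Complex IV subunits were the group most often higher in SSTC3 libraries, with 7 of 12 tested genes up and none down, and complex II was the group with falls only, with 3 of 8 genes down. By edgeR at an unadjusted p under 0.05 and by DESeq2, no complex IV gene was lower and no complex II gene higher. The largest rises were those of Cox7a2l and Cox7c, at 1.31-fold each, and among the genes called, the largest falls were those of Sdhaf2 and Ndufaf4, at 0.77-fold each. Over all complexes, 17 of 88 tested genes rose (19.3%), 11 fell (12.5%) and 60 did not pass an adjusted p of 0.05. Among all 14151 genes tested, 27.1% rose and 26.5% fell, so a smaller share of these genes was called than of genes in general. Their median log2 fold change was 0.01, the same as that of all genes tested. With library totals as the scale, which moved the median of all genes by -0.055, 7 rose and 19 fell, and after the length correction 10 rose and 19 fell. The count of rises was 9 without SSTC3 replicate 2, and that of falls 5 without SSTC3 replicate 1 and 6 without DMSO replicate 1. With a change of more than 1.2-fold required, 2 genes rose and 1 fell, where 15.6% of all genes rose and 11.8% fell. The libraries of the groups did not overlap for 32 genes that were higher and 28 that were lower in SSTC3, while 38.3% and 36.9% of all genes tested were so placed. Ndufa4l2, Cox6a2 and Cox7a1 were too low in these 4 libraries to be tested. In the comparisons, CPM values are scaled by the TMM factors of the 4 libraries compared, and changes are log2 fold changes of SSTC3 over DMSO ± the standard error of the fit.

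**Figure D1:**
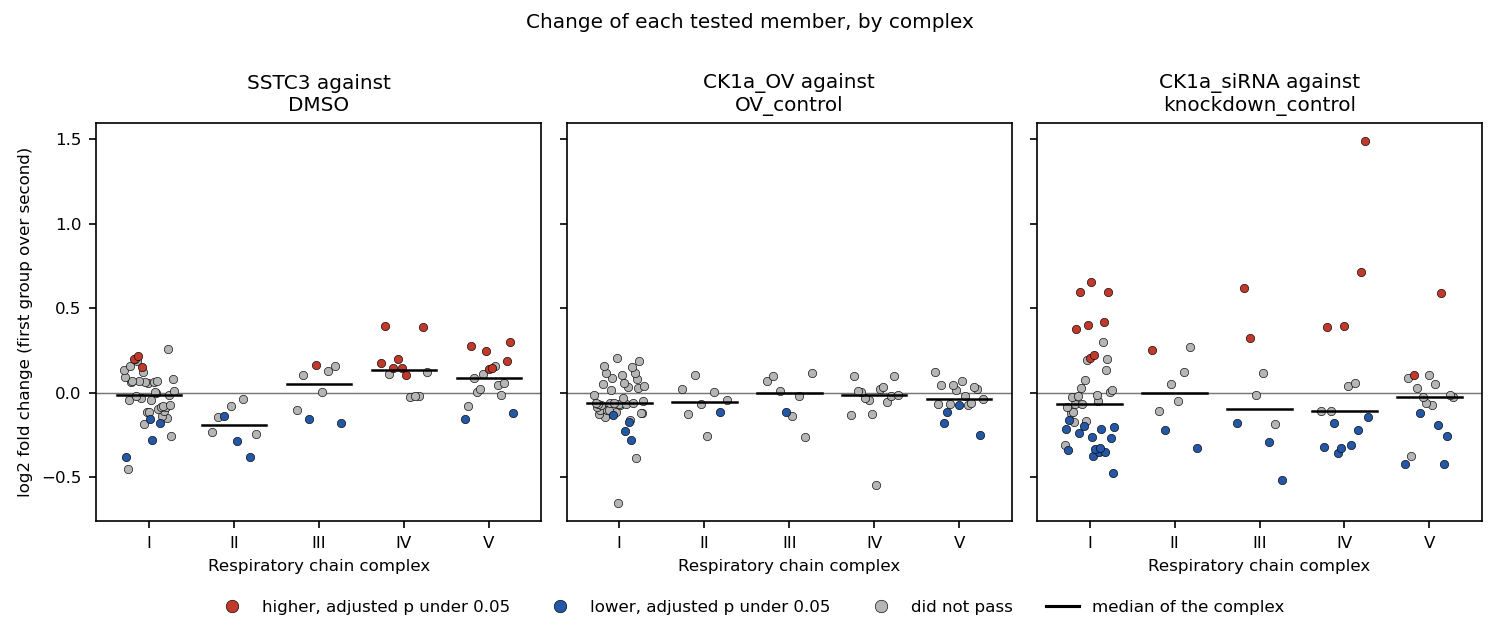
Log2 fold change of each gene (points, vertical axis) by complex (horizontal axis) in the 3 comparisons, with genes called higher in red, genes called lower in blue, genes that did not pass an adjusted p of 0.05 in grey and a line at the median of each complex. In SSTC3 over DMSO most points lie close to 0 and the 8 complex II genes all lie below it, while CK1a_siRNA over knockdown_control spreads widest, up to 1.49 for Cox7a1.

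Among complex IV subunits, Cox7a2l (chr17:83501918-83517330 in mm10), a relative of Cox7a2 known for linking complexes III and IV into supercomplexes, had 149 and 144 CPM in SSTC3 libraries, against 117 and 106 CPM in DMSO libraries. Both SSTC3 libraries lay above both DMSO libraries, and the log2 fold change was 0.39 ± 0.05, adjusted p = 1.62e-12. An annotated copy of this gene, Gm6969, shares at least 97% of its sequence over 160 bases or more and moved alike (0.32, adjusted p = 0.000807), so reads of the pair may have been split between them. In all, 16 of the 91 genes have such annotated copies, and their counts may be uncertain too, to an extent that was not measured. Some copies had almost no counts, such as Atp5l-ps1, a copy of Atp5l, at 0.174 CPM or less. The others of the 16 genes are Ndufa12, Ndufab1, Ndufb4, Ndufs3, Ndufs5, Uqcr11, Uqcrb, Cox5b, Cox7c, Atp5f1, Atp5g1, Atp5g2, Atp5h, Atp5l and Atp5o. Cox7c (chr13:86044816-86046904), a small membrane subunit, had 84.8 and 87.1 CPM in SSTC3 libraries, against 65.8 and 65.6 CPM in DMSO libraries, again without overlap (0.39 ± 0.06, adjusted p = 4.97e-09). Cox4i1, the ubiquitous form of the regulatory subunit IV, had 396 and 386 CPM in SSTC3 libraries, against 346 and 334 CPM in DMSO libraries, and rose by 0.20 ± 0.04, adjusted p = 1.07e-06. These 3 rises passed the test under each alternative scaling and with each library left out. Ndufa4, once counted with complex I and now with complex IV, had 96.4 and 99.9 CPM in SSTC3 libraries, against 90.0 and 83.6 CPM in DMSO libraries (0.18 ± 0.06, adjusted p = 0.00477). Cox7a2, the ubiquitous form of subunit VIIa, and Cox6c rose by 0.15 and 0.14. Without SSTC3 replicate 2 the calls of Ndufa4 and Cox7a2 were lost, as was that of Ndufa4 without DMSO replicate 2 and that of Cox7a2 without SSTC3 replicate 1 or DMSO replicate 1. Library totals, the length correction and DESeq2 each lost both calls. Cox6a1, the ubiquitous subunit VIa, overlapped between groups at 212 and 229.8 CPM in SSTC3 libraries, against 219 and 192 CPM in DMSO libraries (0.10 ± 0.05, adjusted p = 0.0423). Its call was lost under 10 of 14 alternatives, among them library totals, DESeq2 and the fits without SSTC3 replicate 2 or DMSO replicate 2. Its sign turned to -0.02 once the trend of fold change with transcript length was removed. Cox6b1 (0.12 ± 0.06, adjusted p = 0.0628) and Cox8a (-0.02 ± 0.05, adjusted p = 0.755) did not pass. The count of 7 risen complex IV genes fell to 3 with library totals as the scale and to 4 after the length correction, under which Cox8a was called lower, was 3 by DESeq2, and was 4 to 6 with 1 library left out.

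Complex II is the smallest complex, built of the flavoprotein Sdha, the iron–sulfur protein Sdhb and the membrane anchors Sdhc and Sdhd, with no mitochondrially encoded part. In SSTC3 libraries all 8 complex II genes had a negative fold change, with a median of -0.19. Sdhaf2 (chr19:10500534-10526142), which attaches the flavin to Sdha, had 52.7 and 47.1 CPM in SSTC3 libraries, against 65.9 and 63.8 CPM in DMSO libraries. The groups did not overlap, and the change of -0.38 ± 0.07, adjusted p = 3.21e-07 passed under every alternative run, the requirement of a 1.2-fold change included. Sdhd (chr9:50596357-50603812) had 96.1 and 88.6 CPM in SSTC3 libraries, against 116 and 109.7 CPM in DMSO libraries, and fell by 0.29 ± 0.05, adjusted p = 1.49e-06. Its partner Sdhc had 97.5 and 96.9 CPM in SSTC3 libraries, against 108 and 106 CPM in DMSO libraries. That fall was small (-0.14 ± 0.05, adjusted p = 0.0231) and was lost without either SSTC3 library, without DMSO replicate 1, in DESeq2 and at over 1.2-fold. The catalytic Sdha (-0.08 ± 0.05, adjusted p = 0.138) and Sdhb (-0.03 ± 0.06, adjusted p = 0.635) did not pass, but Sdha was called lower with library totals (adjusted p = 0.00814) and without DMSO replicate 2. Whether the anchors and the catalytic pair differed was not tested.

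**Figure D2:**
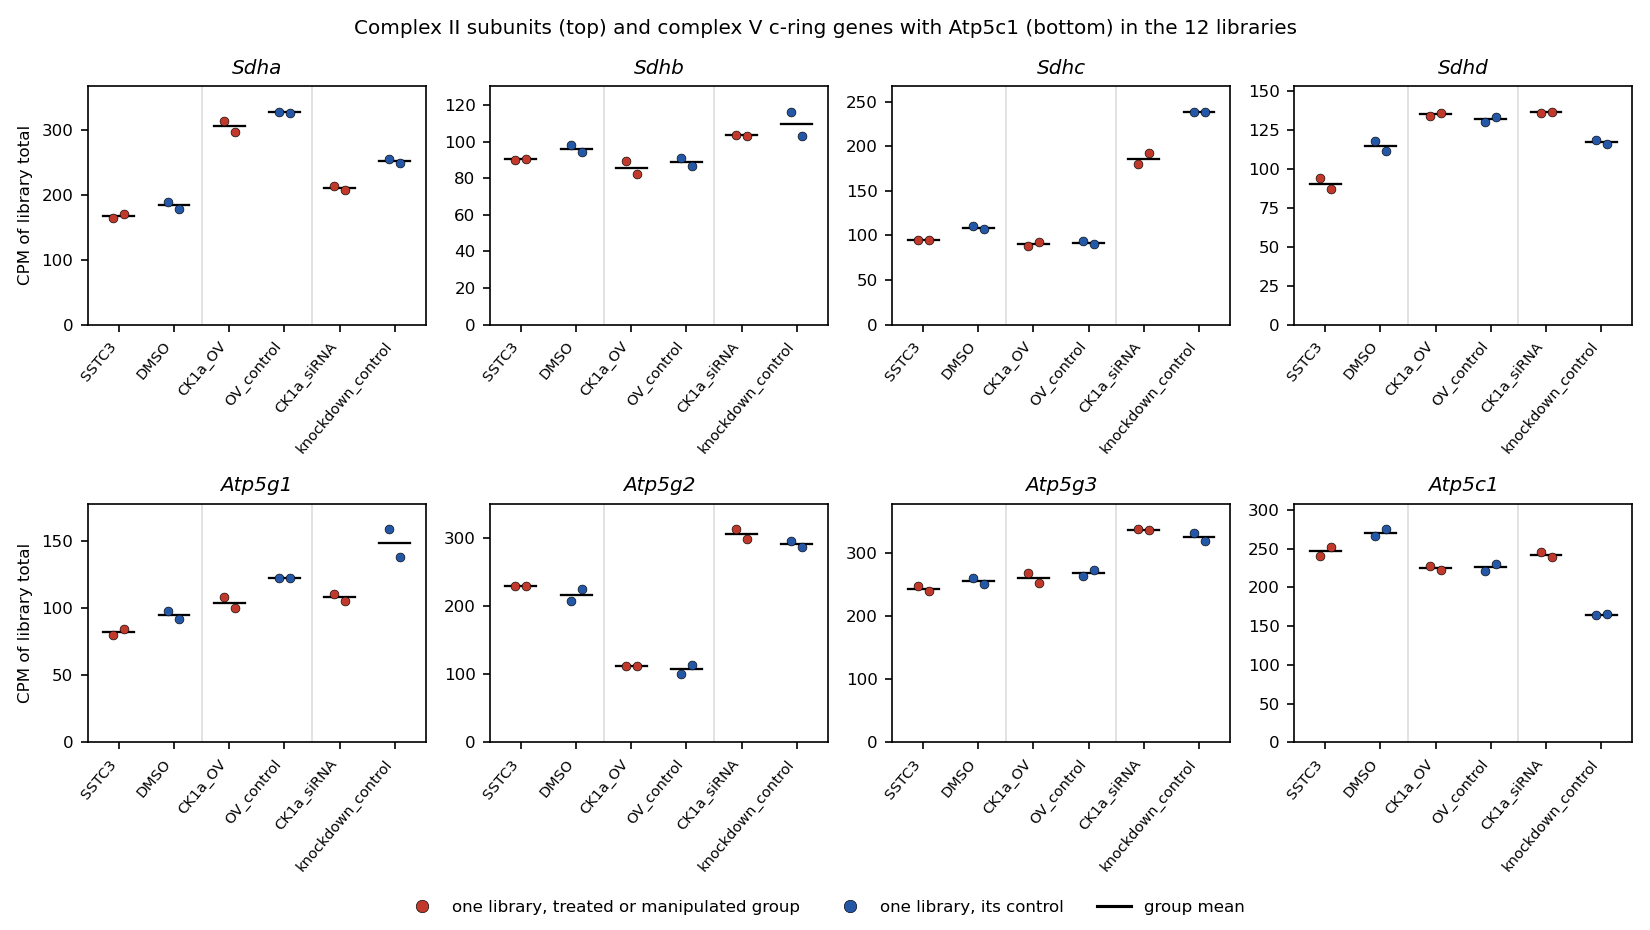
Level of Sdha, Sdhb, Sdhc and Sdhd and of Atp5g1, Atp5g2, Atp5g3 and Atp5c1 in each library (points, CPM of the library total) for the 6 groups, with lines at the group means and separate colours for treated groups and their controls. Sdhd stands at 136 and 137 CPM in CK1a_siRNA libraries, above 118 and 116 CPM in knockdown_control libraries, while Sdhc and Atp5g1 stand below theirs.

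Complex I, the NADH dehydrogenase, showed no common direction under SSTC3, with 3 of 43 genes higher and 4 lower and a median of -0.02. Ndufa10, an accessory subunit of the membrane arm, had 110.2 and 105 CPM in SSTC3 libraries, against 96.6 and 88.9 CPM in DMSO libraries (0.22 ± 0.05, adjusted p = 3.37e-04). Ndufa6 (0.20 ± 0.07, adjusted p = 0.0125) and Ndufa7 (0.15 ± 0.06, adjusted p = 0.0178) also rose, but these calls were lost without SSTC3 replicate 2 or without DMSO replicate 2. Both were also lost with library totals, after the length correction and in DESeq2. Ndufaf4 (chr4:24898083-24905001), a factor of early complex I assembly, had 30.1 and 26.8 CPM in SSTC3 libraries, against 35.3 and 38.6 CPM in DMSO libraries. The groups did not overlap (-0.38 ± 0.09, adjusted p = 6.53e-05). The membrane-arm subunits Ndufb4 (-0.28 ± 0.09, adjusted p = 0.00301) and Ndufb8 (-0.18 ± 0.05, adjusted p = 0.00315) and the iron–sulfur subunit Ndufs7 (-0.15) were the other falls. The Ndufb4 call rested on SSTC3 replicate 1, and the Ndufb8 call on SSTC3 replicate 2 and DMSO replicate 1, in that it was lost without either. DESeq2 also lost the Ndufb4 call. With library totals as the scale, 1 complex I gene was called higher and 9 lower.

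In complex III, Uqcrc1, one of the large matrix subunits known as core proteins and counted here as accessory, had 193 and 204 CPM in SSTC3 libraries, against 225 and 217 CPM in DMSO libraries (-0.16 ± 0.04, adjusted p = 9.85e-04), and the call was lost without SSTC3 replicate 1. The hinge subunit Uqcrh rose (0.16 ± 0.06, adjusted p = 0.00939) and Uqcr11 fell (-0.18 ± 0.08, adjusted p = 0.0497), and each call was lost without SSTC3 replicate 1 or without DMSO replicate 1. Both were also lost in DESeq2. The Uqcrh call was lost too with library totals and after the length correction, and the Uqcr11 call under 8 of 14 alternatives. In complex V, 6 of 17 genes rose and 2 fell. Atp5e, the ε subunit of the central stalk, had 62.4 and 62.7 CPM in SSTC3 libraries, against 54.0 and 47.6 CPM in DMSO libraries, without overlap (0.30 ± 0.07, adjusted p = 5.50e-05). Atp5mpl, a small membrane protein of the synthase, had 50.3 and 53.8 CPM in SSTC3 libraries, against 43.6 and 42.3 CPM in DMSO libraries (0.28 ± 0.07, adjusted p = 5.94e-04). The membrane subunit e, encoded by Atp5k, rose by 0.25 ± 0.10, adjusted p = 0.0235, and the call was lost without SSTC3 replicate 2 or DMSO replicate 1. In all, 8 of 14 alternatives lost the Atp5k call, among them library totals, the length correction and DESeq2. Atp5a1, the α subunit of the catalytic F1 head, had 905 and 919.8 CPM in SSTC3 libraries, against 986 and 993 CPM in DMSO libraries. Its change of -0.12 ± 0.03, adjusted p = 0.00175 was small and was lost without SSTC3 replicate 1. The 6 rises in complex V became 3 with library totals and 4 after the length correction, against 3 falls under either.

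The c ring, the rotor through which protons return, is made from a single mature protein encoded by Atp5g1, Atp5g2 and Atp5g3, which differ in their import signals. Under SSTC3 the 3 genes did not move together. Atp5g1 had 81.6 and 85.9 CPM in SSTC3 libraries, against 96.2 and 90.6 CPM in DMSO libraries, and fell (-0.16 ± 0.06, adjusted p = 0.0144). Atp5g2 had 235 and 234 CPM in SSTC3 libraries, against 204 and 222 CPM in DMSO libraries, and rose (0.14 ± 0.04, adjusted p = 0.00281), and Atp5g3 had 252 and 245 CPM in SSTC3 libraries, against 256 and 247 CPM in DMSO libraries (adjusted p = 0.782). Without SSTC3 replicate 1 or without DMSO replicate 1, neither call remained. Both calls were also lost in DESeq2, and that of Atp5g2 with library totals and after the length correction. A copy of Atp5g1, Gm10039, had 19.7 to 44.3 CPM over the 12 libraries and a fold change of -0.22 under SSTC3 (adjusted p = 0.0512), so some reads of the pair may have been counted on either.

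By role, 14 of 55 accessory subunits rose (25.5%) and 4 fell under SSTC3 (median 0.07). Of 20 core subunits, 2 rose and 5 fell (25% lower, median -0.06). Among all genes tested 27.1% rose and 26.5% fell, so none of these shares was above that of genes in general. Of 12 assembly factors, 2 fell with none higher, also at an unadjusted p under 0.05 (median -0.19, with 10 of 12 negative). Exon length and log2 fold change had a Spearman rho of -0.215 over the 88 genes and -0.144 over 14144 genes tested, as a description across genes that share the same 4 libraries. Accessory genes were shorter, with a median of 1465 exonic bases against 2179.5 for core genes. After the length correction the accessory genes had 8 rises and 9 falls and a median of -0.01, and with library totals 5 rises and 6 falls and a median of 0.02. The core genes had 1 rise and 8 falls after the length correction (median -0.08), and 1 rise and 10 falls with library totals (median -0.11).

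**Figure D3:**
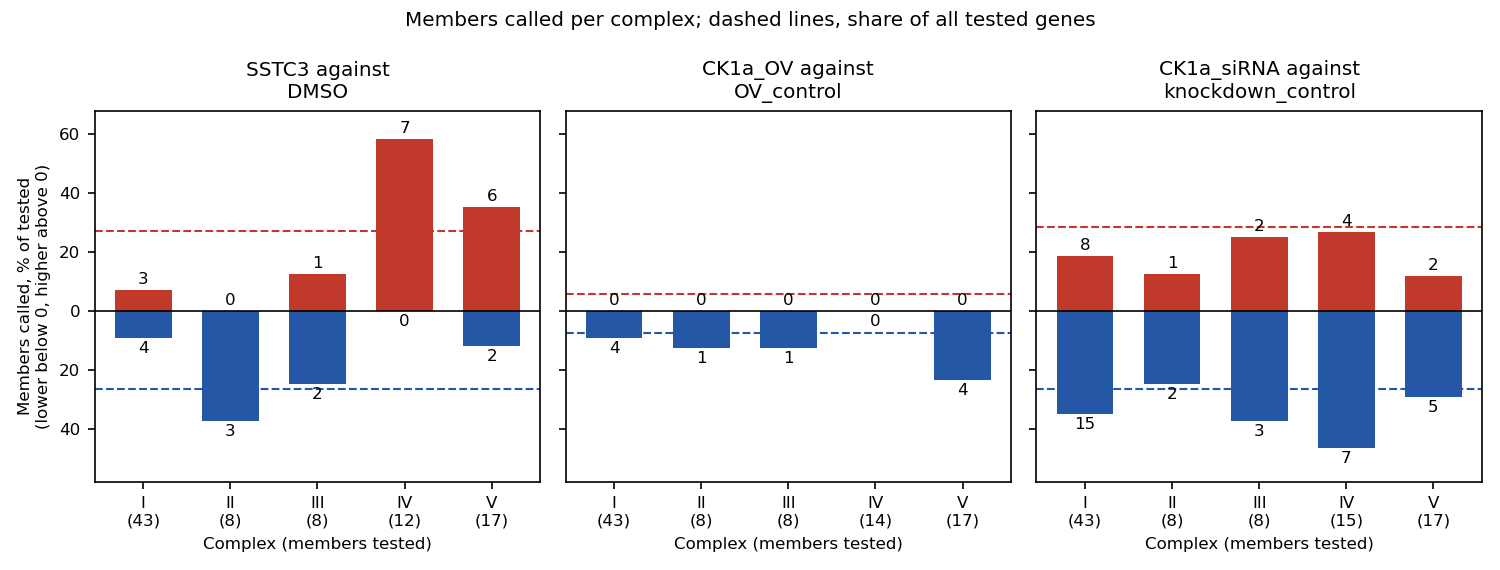
Percent of the tested genes of each complex called higher (bars above 0) and lower (bars below 0) at an adjusted p of 0.05 in each comparison, with the number of genes at each bar and the share over all genes tested as dashed lines. In SSTC3 over DMSO the rises of complexes IV, at 7 of 12 higher, and V and the falls of complex II stand beyond the dashed lines. In CK1a_OV over OV_control the falls of complexes I, II, III and V do so, with 1 gene each in complexes II and III, and no complex has a rise. In CK1a_siRNA over knockdown_control the falls of complexes I, III, IV and V do so.

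In cells labelled for CK1a overexpression, every call among the 91 genes was a fall, and each was small. Of 90 tested genes, 10 were lower (11.1%), none was higher and 80 did not pass, against 7.57% lower and 5.78% higher of 13958 genes tested. At an unadjusted p under 0.05 in edgeR's fit, 8 were higher, and DESeq2 called none higher and 3 lower. None passed a 1.2-fold requirement, which 0.0502% of all genes passed upward and 0.48% downward. The libraries did not overlap for 11 genes higher and 25 lower in CK1a_OV, against 26.6% and 26.8% of all genes. The calls lay in complex I (4 of 43) and complex V (4 of 17), with 1 each in complexes II and III and none of 14 in complex IV, where 1 gene was higher and 1 lower at an unadjusted p under 0.05 and DESeq2 called none. The median log2 fold change was -0.04, against 0.00 for all genes tested.

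The largest fall among the called genes was in Ndufa9 (chr6:126821721-126849136), an accessory subunit next to the ubiquinone site of complex I, which had 58.9 and 59.9 CPM in CK1a_OV libraries, against 72.7 and 71.7 CPM in OV_control libraries. The groups were apart (-0.28 ± 0.06, adjusted p = 4.81e-04). Atp5g1 (chr11:96068852-96075670) had 108 and 99.7 CPM in CK1a_OV libraries, against 123 and 123 CPM in OV_control libraries, and fell by 0.25 ± 0.05, adjusted p = 1.29e-04. These 2 calls held with each library left out and under each alternative except the 1.2-fold requirement. The other c-ring genes, Atp5g2 (0.05 ± 0.05, adjusted p = 0.595) and Atp5g3 (-0.06 ± 0.04, adjusted p = 0.299), did not pass. Smaller falls were those of Ndufb6 (-0.22 ± 0.07) and Ndufa8 (-0.17 ± 0.05) of the complex I membrane arm. Sdha had 312 and 296 CPM in CK1a_OV libraries, against 329.7 and 329 CPM in OV_control libraries (-0.11 ± 0.03, adjusted p = 0.0133), while Sdhb (adjusted p = 0.493), Sdhc (adjusted p = 0.682) and Sdhd (adjusted p = 0.824) did not pass. Uqcrc1 fell as well (-0.12 ± 0.03, adjusted p = 0.0116). In complex V, Atp5j, the coupling factor of the peripheral stalk, was lower (-0.18 ± 0.05, adjusted p = 0.0246), as were Atp5a1 (-0.12 ± 0.03, adjusted p = 0.00177) and Atp5b (-0.07 ± 0.02). Exons of Atp5j overlap those of Gabpa over 12.7% of their length and exons of Ndufb6 those of Smim27 over 39.0%, and the strand setting of the counting is not given, so reads there cannot be told apart. The same holds for Ndufa13 (30.0% of its exon length), Uqcrc2 (19.7%), Cox5a (12.8%), Ndufa2 (11.5%) and Cox6a2 (10.3%). It also holds for the complex II assembly factors Sdhaf1 (69.6%) and Sdhaf4 (12.7%), and for Ndufaf2 (65.6%), Atp5o (47.9%), Ndufb11 (12.9%) and Ndufb5 (12.3%). These 13 genes are all those with 10% or more of their exon length shared. The calls of Ndufb6, Ndufa8, Sdha, Uqcrc1 and Atp5j were lost without CK1a_OV replicate 2. Those of Ndufb6, Sdha, Uqcrc1 and Atp5j were also lost without OV_control replicate 1, those of Ndufa8, Sdha, Uqcrc1 and Atp5a1 without OV_control replicate 2, and that of Ndufb6 without CK1a_OV replicate 1. The count of falls was 4 without CK1a_OV replicate 2 and 6 without OV_control replicate 1, and with library totals as the scale 9 fell and 2 rose.

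No complex IV gene was called in CK1a_OV libraries. Cox4i1 had 407 and 381 CPM in CK1a_OV libraries, against 388 and 415 CPM in OV_control libraries (adjusted p = 0.657), and its libraries overlapped. Fold changes of Cox6a1, Cox6b1, Cox7a2, Cox7a2l, Ndufa4 and Cox8a lay between -0.13 for Cox8a and 0.10 for Cox7a2, with adjusted p-values of 0.0833 or more. Cox8a had 354 and 315 CPM in CK1a_OV libraries, against 361 and 369.7 CPM in OV_control libraries, and passed under 6 of 14 alternatives. The low-count Ndufa4l2 had the lowest fold change of the complex, with libraries that did not overlap, and did not pass (-0.54 ± 0.39, adjusted p = 0.400). Ndufa12, an accessory complex I subunit, differed widely between the OV_control replicates. It had 29.6 and 28.4 CPM in CK1a_OV libraries, against 61.2 and 29.9 CPM in OV_control libraries, and its annotated copy Gm15920 was lowest in the same OV_control replicate 1, at 39.0 CPM, against 49.9 to 56.2 CPM in the other 3 libraries of the set.

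CK1a knockdown changed more of these genes than the other 2 conditions did. Its excess over SSTC3 lay in the falls, since the count of rises was 17 in each. Of 91 tested genes, 17 rose (18.7%), 32 fell (35.2%) and 42 did not pass, against 28.3% and 26.4% of 14832 genes tested. In this fit, falls were thus more frequent, and rises less frequent, among them than among genes in general. After the length correction 21 rose and 27 fell, and by DESeq2 13 rose and 24 fell, so the gap between falls and rises was narrower. With library totals as the scale it was wider, at 15 rises and 37 falls. The median log2 fold change was -0.07, against -0.01 for all genes tested. At more than 1.2-fold, 10 rose and 6 fell, against 18% and 16% of all genes. The libraries did not overlap for 25 genes higher and 41 lower in CK1a_siRNA, against 38% and 37.6% of all genes. By role, 25 of 55 accessory subunits fell and 7 rose, and 6 of 20 core subunits fell and 5 rose. Of the 12 assembly factors, 3 rose and none fell, also at an unadjusted p under 0.05. The medians were -0.16 for accessory subunits, -0.02 for core subunits and 0.17 for assembly factors, and after the length correction they were -0.10, 0.02 and 0.21, so that the sign for core subunits turned.

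In complex I, 15 of the 35 subunits fell and 5 rose, and 3 of 8 assembly factors rose. Ndufb10 (chr17:24722060-24724478), an intermembrane-space subunit of the membrane arm, had 73.1 and 78.3 CPM in CK1a_siRNA libraries, against 51.8 and 44.7 CPM in knockdown_control libraries. The groups were well apart, at 0.65 ± 0.07, adjusted p = 1.07e-11. Ndufaf4 had 74.8 and 67.1 CPM in CK1a_siRNA libraries, against 46.0 and 47.8 CPM in knockdown_control libraries (0.60 ± 0.07, adjusted p = 1.38e-10), and the other risen assembly factors, Ndufaf1 (0.40 ± 0.13) and Ndufaf3 (0.38 ± 0.13), moved by less. Ndufv3, an accessory subunit of the NADH-oxidising module, had 77.9 and 76.4 CPM in CK1a_siRNA libraries, against 54.9 and 47.5 CPM in knockdown_control libraries (0.59 ± 0.07, adjusted p = 9.01e-11). Ndufv2, an iron–sulfur subunit of the same module, rose by 0.42 ± 0.06, adjusted p = 1.00e-08, and Ndufa10 and Ndufb7 were the remaining rises. In the other direction, Ndufs5, which sits on the intermembrane-space side of the membrane arm, had 68.5 and 66.6 CPM in CK1a_siRNA libraries, against 94.1 and 93.5 CPM in knockdown_control libraries, and fell by 0.47 ± 0.06, adjusted p = 1.58e-09. Ndufa2 had 62.1 and 56.1 CPM in CK1a_siRNA libraries, against 78.2 and 74.9 CPM in knockdown_control libraries (-0.37 ± 0.07, adjusted p = 3.78e-06), and Ndufab1, the mitochondrial acyl carrier protein, had 70.3 and 74.0 CPM in CK1a_siRNA libraries, against 93.5 and 90.8 CPM in knockdown_control libraries (-0.35 ± 0.06, adjusted p = 1.91e-06). The other 12 falls ran from -0.16 for Ndufa8 to -0.35 for Ndufs6, and included Ndufs4 (-0.34 ± 0.08), Ndufa13 (-0.33 ± 0.08) and the iron–sulfur subunit Ndufs8 (-0.26 ± 0.06).

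Complex II split under knockdown. Sdhc had 183 and 195 CPM in CK1a_siRNA libraries, against 237 and 236 CPM in knockdown_control libraries, and fell by 0.32 ± 0.05, adjusted p = 2.64e-08. Sdha had 217 and 211 CPM in CK1a_siRNA libraries, against 252 and 246 CPM in knockdown_control libraries (-0.22 ± 0.05, adjusted p = 3.79e-05). Sdhd, the other membrane anchor, went the opposite way, with 138 and 139 CPM in CK1a_siRNA libraries, against 117 and 114 CPM in knockdown_control libraries (0.26 ± 0.05, adjusted p = 4.09e-05), and Sdhb had 105 and 105 CPM in CK1a_siRNA libraries, against 116 and 102 CPM in knockdown_control libraries (adjusted p = 0.504). The promoter windows of Sdha and Sdhd printed above both carry NRF1 letters. Of 21 genes with NRF1 letters in the window, 4 rose and 7 fell under knockdown, and of 54 without them 10 rose and 18 fell. Under SSTC3, of 21 with them 4 rose and 4 fell (median -0.08), and of 53 without them 10 rose and 5 fell (median 0.06). In CK1a_OV libraries 3 of 21 with them and 5 of 54 without them fell, and none rose. These differences were not tested.

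In complex III the Rieske iron–sulfur protein Uqcrfs1 (chr13:30540308-30545362), a core redox subunit, had 209 and 199 CPM in CK1a_siRNA libraries, against 136 and 129.9 CPM in knockdown_control libraries. Both knockdown libraries lay far above both controls (0.62 ± 0.05, adjusted p = 3.89e-17). Uqcrh rose by 0.33 ± 0.06, adjusted p = 1.46e-05. Uqcr10 (chr11:4701973-4704342), a small accessory subunit of the same complex, had 113 and 106 CPM in CK1a_siRNA libraries, against 155 and 158 CPM in knockdown_control libraries, and fell by 0.52 ± 0.05, adjusted p = 5.79e-13. Uqcrq (-0.29 ± 0.05, adjusted p = 3.42e-07) and the core protein Uqcrc2 (-0.18 ± 0.05, adjusted p = 0.00167) also fell, and the Uqcrc2 call was lost without CK1a_siRNA replicate 1. Within this 8-gene complex, then, 2 genes rose and 3 fell.

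In complex IV, Cox4i1 had 262 and 246 CPM in CK1a_siRNA libraries, against 204 and 185 CPM in knockdown_control libraries (0.39 ± 0.05, adjusted p = 4.72e-10), and Cox6c had 251 and 235 CPM in CK1a_siRNA libraries, against 188 and 182 CPM in knockdown_control libraries (0.39 ± 0.05, adjusted p = 1.26e-10). Opposite to these, Cox6b1, the subunit on the intermembrane-space face, had 192 and 185 CPM in CK1a_siRNA libraries, against 244 and 238 CPM in knockdown_control libraries (-0.36 ± 0.05, adjusted p = 1.39e-09). Cox5a, a matrix-side subunit, had 183 and 183 CPM in CK1a_siRNA libraries, against 226 and 231 CPM in knockdown_control libraries (-0.32 ± 0.05, adjusted p = 3.25e-08). Cox6a1 had 325 and 322 CPM in CK1a_siRNA libraries, against 443 and 369 CPM in knockdown_control libraries, with the controls far apart from each other (-0.33 ± 0.07, adjusted p = 0.00287). Cox7a2 (-0.22 ± 0.06, adjusted p = 0.00104), Cox8a (-0.18 ± 0.05, adjusted p = 9.92e-04) and Cox7c (-0.15 ± 0.05) fell too, the Cox8a call being lost after the length correction. Cox7a2l (adjusted p = 0.333) and Ndufa4 (adjusted p = 0.558) did not pass.

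Isoforms of complex IV subunits differed widely between the cell sets, and those that rose under knockdown had the largest rises of the 91 genes. Ndufa4l2, a relative of Ndufa4 known as a hypoxia-induced gene, had 336 and 337 CPM of the library total in CK1a_siRNA libraries and 214 and 207 CPM in knockdown_control libraries. In the other MEF set the same gene had 1.13 and 1.43 CPM in CK1a_OV libraries and 2.02 and 1.69 CPM in OV_control libraries, and it stayed at 0.354 CPM or less in SSTC3 and DMSO libraries. The mean was 210.4 CPM in knockdown_control libraries and 1.85 CPM in OV_control libraries, groups that carry the same cell label, although the files of the 2 sets list different features. Under knockdown the gene rose by 0.71 ± 0.04, adjusted p = 7.53e-22. Cox6a2, the heart and skeletal muscle form of subunit VIa, had 24.2 and 29.2 CPM in CK1a_siRNA libraries and 35.1 and 32.6 CPM in knockdown_control libraries, and under 1 CPM in every other library. Its fall (-0.31 ± 0.10, adjusted p = 0.00555) was lost after the length correction, in DESeq2 and without CK1a_siRNA replicate 1. Cox7a1, the heart and skeletal muscle form of subunit VIIa, had 5.15 and 5.52 CPM in CK1a_siRNA libraries and 1.87 and 2.02 CPM in knockdown_control libraries. This low-count gene had the largest fold change of all 91 genes (1.49 ± 0.26, adjusted p = 1.53e-06), or 2.80-fold. Of 8 striated muscle markers, 1 had enough counts to be tested, and this gene, Des, rose (0.48 ± 0.09, adjusted p = 9.99e-06). The list summed to 37.3 and 35.7 CPM in CK1a_siRNA libraries and 26.6 and 27.9 CPM in knockdown_control libraries, with 3 to 5 of the 8 at 0 in each. Des gave 36.6 and 35.0 CPM of it in CK1a_siRNA libraries and 25.4 and 27.2 CPM in knockdown_control libraries, Tnnt3 was at 0 in both CK1a_siRNA libraries, and their part in the rise of Cox7a1 was not tested.

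**Figure D4:**
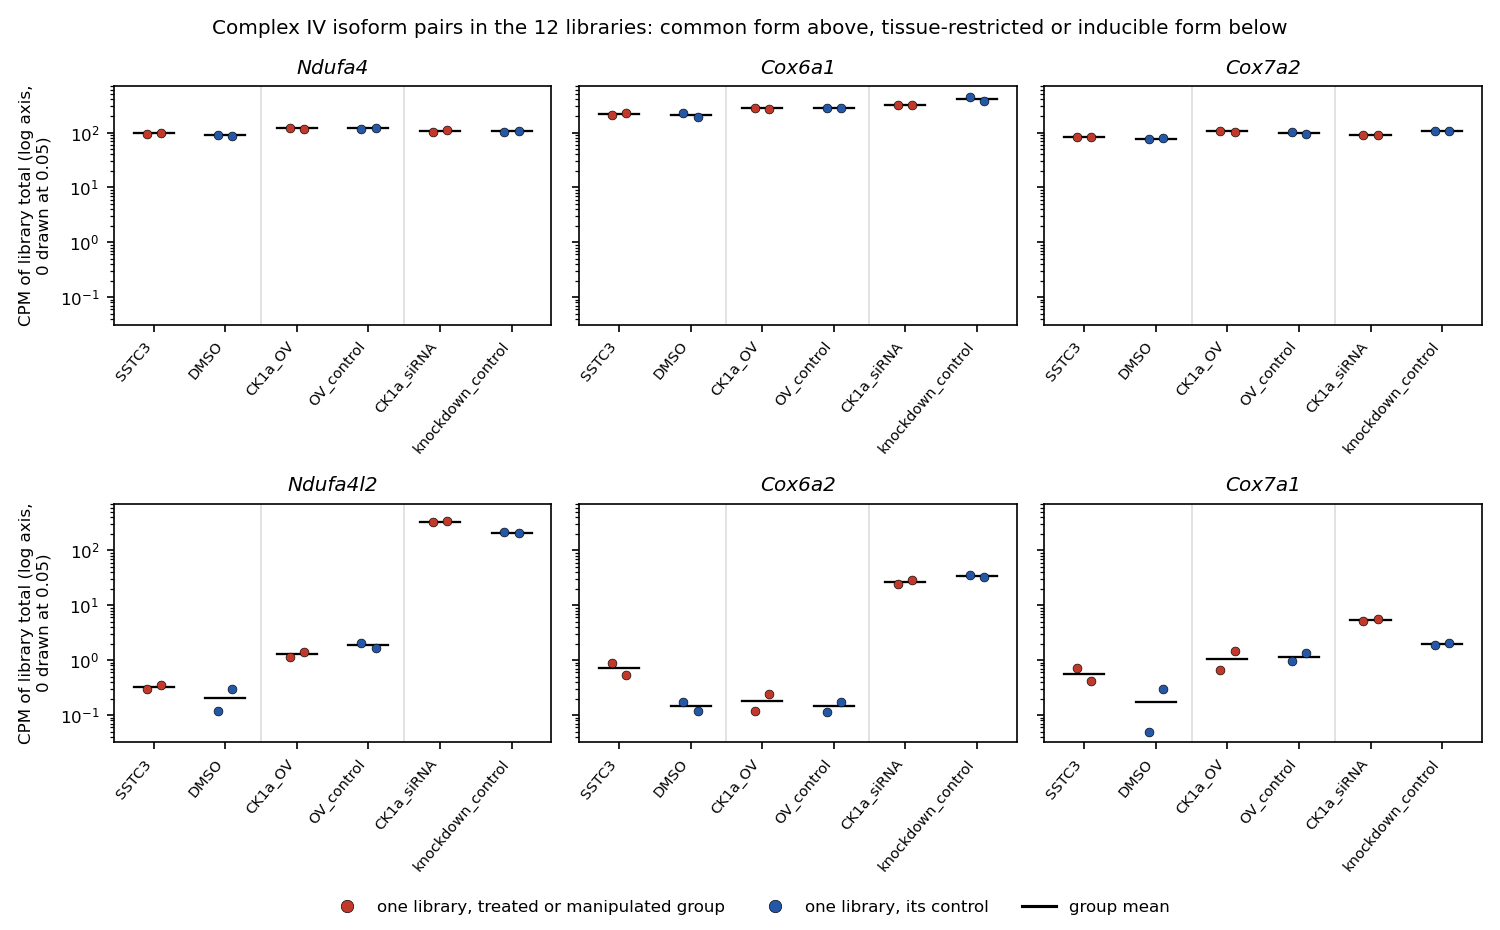
Level in each library (points, CPM of the library total on a log axis, 0 drawn at 0.05) of the ubiquitous genes Ndufa4, Cox6a1 and Cox7a2 (top) and of their relatives Ndufa4l2, Cox6a2 and Cox7a1 (bottom) in the 6 groups. The top genes keep to 75.8 to 447 CPM in all 12 libraries, while Ndufa4l2 and Cox6a2 reach 24.2 CPM or more in the 4 libraries of the knockdown set and stay at 2.02 CPM or less in the other 8.

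In complex V, Atp5c1 (chr2:10056016-10080510), the γ subunit that turns inside the catalytic head, had 248.6 and 242.4 CPM in CK1a_siRNA libraries, against 162 and 164 CPM in knockdown_control libraries. It rose without overlap by 0.59 ± 0.05, adjusted p = 3.60e-17, while the α subunit gene Atp5a1 fell slightly (-0.12 ± 0.04, adjusted p = 0.00745). Atp5j2, the membrane subunit f, had 180.4 and 180.3 CPM in CK1a_siRNA libraries, against 247 and 236 CPM in knockdown_control libraries (-0.42 ± 0.05, adjusted p = 9.85e-12). Atp5f1, the b subunit of the peripheral stalk, had 247 and 243 CPM in CK1a_siRNA libraries, against 290.0 and 297 CPM in knockdown_control libraries (-0.26 ± 0.04, adjusted p = 1.29e-06), and Atp5e was lower as well (-0.19 ± 0.05). The c-ring genes again parted. Atp5g1 had 112 and 107 CPM in CK1a_siRNA libraries, against 157 and 136 CPM in knockdown_control libraries, and fell by 0.42 ± 0.06, adjusted p = 7.64e-09. Atp5g2 (0.10 ± 0.04, adjusted p = 0.040) rose slightly in a call lost under 10 of 14 alternatives, among them those without either CK1a_siRNA library and without knockdown_control replicate 2, and Atp5g3 (0.09 ± 0.04, adjusted p = 0.0898) did not pass. The copy Gm10039 had a fold change of -0.21 (adjusted p = 0.0470).

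The 3 comparisons share no libraries, so their values can be set side by side. Of the 91 genes, 63 were called in at least 1 comparison and 28 in none. Among all genes tested, 53.6% were called under SSTC3, 13.3% in CK1a_OV libraries and 54.7% under knockdown. Of the 91, Atp5a1 and Atp5g1, both of complex V, were the only ones lower in all 3 comparisons, and none was higher in all 3. How many of all genes were called in at least 1 comparison, or in all 3, was not counted. Of the 28 genes called under SSTC3, 18 were also called under knockdown, which is 64.3% of the first list and 36.7% of the 49 called under knockdown. Over all genes tested, 54.7% were called under knockdown, so a share of this size is near the background. In 9 of the 18 the direction was shared, among them Cox4i1, Cox6c and Uqcrh higher and Sdhc and Atp5g1 lower. Another 7 were higher in SSTC3 libraries and lower in CK1a_siRNA libraries, namely Ndufa6, Ndufa7, Cox6a1, Cox7a2, Cox7c, Atp5e and Atp5j2. Ndufaf4 and Sdhd were lower in SSTC3 libraries and higher in CK1a_siRNA libraries. Of the 10 genes lower in CK1a_OV libraries, 5 were lower in CK1a_siRNA libraries (50% of the first list, 10.2% of the second). There 35.2% of the 91 genes and 26.4% of all genes tested were lower. Of the same 10 genes, 3 were called in SSTC3 libraries, again all lower. Under SSTC3, 12.5% of the tested genes of the rule and 26.5% of all genes tested were lower.

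The difference between the SSTC3 effect and the knockdown effect was tested directly in a fit of all 12 libraries, as the log2 fold change of SSTC3 over DMSO minus that of CK1a_siRNA over knockdown_control. It passed for 42 of the 91 genes, 30 with a higher and 12 with a lower SSTC3 effect, while 45.1% of 17105 genes passed, 23.5% higher and 21.6% lower. The higher differences were in complexes I (12), IV (7), V (7), II (2) and III (2). Among them were Uqcr10 (0.68 ± 0.09, adjusted p = 8.20e-11), Atp5j2 (0.64 ± 0.06, adjusted p = 1.40e-14), Cox7c (0.56 ± 0.08, adjusted p = 4.17e-08), Atp5e (0.52 ± 0.09, adjusted p = 1.59e-07) and Cox5a (0.46 ± 0.07, adjusted p = 1.46e-08). The lower differences were led by Ndufaf4 (-0.94 ± 0.11, adjusted p = 4.50e-12), Atp5c1 (-0.64 ± 0.06, adjusted p = 5.51e-16), Sdhd (-0.51 ± 0.07, adjusted p = 3.00e-09) and Uqcrfs1 (-0.49 ± 0.07, adjusted p = 1.66e-09). For Atp5g1, lower in both comparisons, the fall under knockdown was the larger (difference 0.29 ± 0.08, adjusted p = 0.00133), and for Cox4i1, higher in both, the rise under knockdown was the larger (-0.16 ± 0.06, adjusted p = 0.0245). The cells differ between the 2 sets as well as the treatment, so these cannot be told apart in the difference. The same test of the overexpression effect against the knockdown effect passed for 34 of the 91 genes, 20 higher and 14 lower, against 35.1% of all genes.

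**Figure D5:**
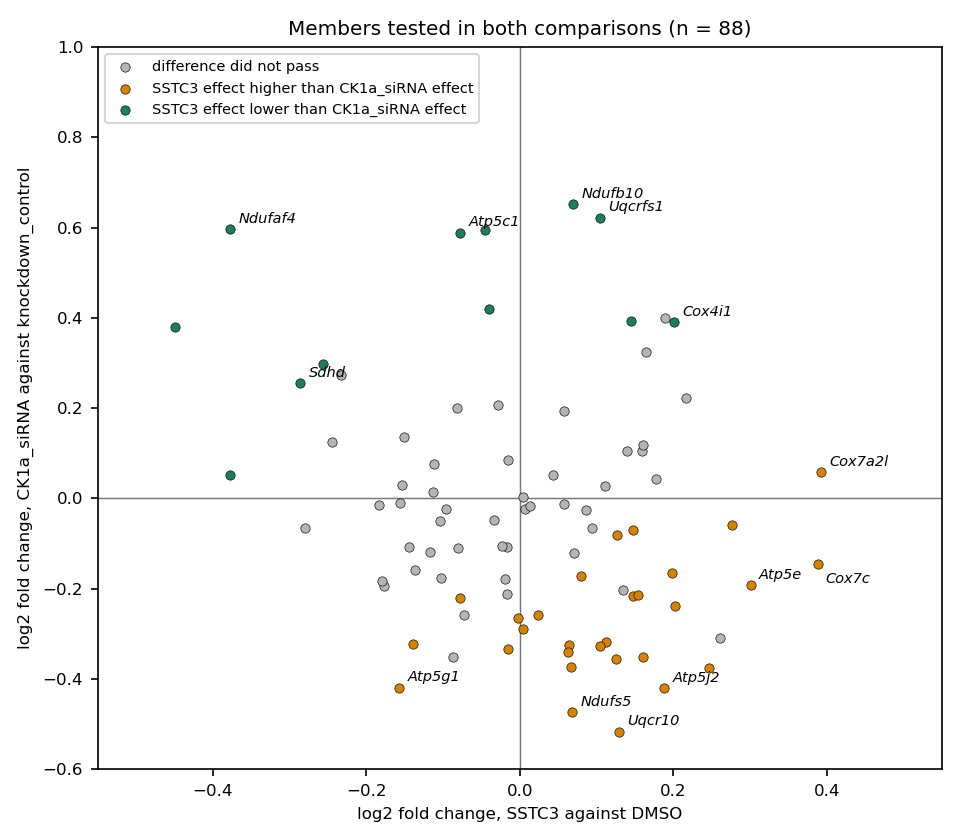
Log2 fold change of CK1a_siRNA over knockdown_control and of SSTC3 over DMSO for the 88 genes tested in both (1 point each), coloured by whether the difference between the 2 effects passed an adjusted p of 0.05. Ndufaf4 and Sdhd lie on the side of a fall under SSTC3 and a rise under knockdown, and Cox7c and Atp5j2 on the opposite side.

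Related genes were read from lists that hold none of the 91. Their counts, here and in the paragraphs below, stand beside the shares of all genes tested. These were 27.1% higher and 26.5% lower in SSTC3 libraries, 5.78% and 7.57% in CK1a_OV libraries, and 28.3% and 26.4% in CK1a_siRNA libraries. A list with shares near these values does not stand out from genes in general. The mitochondrially encoded subunits, the partners of these proteins inside complexes I, III, IV and V, had 6 of 12 genes higher and 1 lower in SSTC3 libraries, with mt-Co1 at 0.31 ± 0.03, adjusted p = 2.36e-19 and mt-Nd1 at 0.23 ± 0.03, adjusted p = 2.14e-11 higher, as were mt-Nd4, mt-Atp6, mt-Co2 and mt-Nd4l, and mt-Nd3 at -0.23 lower. After the length correction 4 were higher and 3 lower. Mitochondrially encoded genes took 1.98% and 1.85% of counts in SSTC3 libraries and 1.55% and 1.65% in DMSO libraries, opposite in direction to the share of the 91 genes. In CK1a_siRNA libraries 3 of 12 were higher, led by mt-Nd1 (0.41 ± 0.04, adjusted p = 8.02e-15), and mt-Nd6 was lower (-0.42 ± 0.05, adjusted p = 1.43e-07). Their share there was 1.40% in both CK1a_siRNA libraries and 1.23% and 1.31% in knockdown_control libraries. The overexpression files hold no counts for them.

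Assembly factors outside the symbol prefixes had 3 of 34 genes higher and 13 lower in SSTC3 libraries, only Acad9 lower (-0.16) in CK1a_OV libraries, and 8 higher and 12 lower in CK1a_siRNA libraries. Cox17, the copper chaperone of complex IV, had 15.1 and 14.7 CPM in CK1a_siRNA libraries, against 46.7 and 44.9 CPM in knockdown_control libraries. That change of -1.62 ± 0.10, adjusted p = 7.02e-23 exceeded that of any of the 91 genes in size. Cox10, which makes the heme a precursor for complex IV, was lower under SSTC3 (-0.55 ± 0.09, adjusted p = 2.37e-08) and higher under knockdown (0.64 ± 0.09, adjusted p = 7.05e-09). Foxred1, a complex I assembly factor, fell under knockdown (-0.62), and Sco1, a second copper chaperone, rose under SSTC3 (0.45), where Uqcc1, a complex III assembly factor, fell (-0.34).

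Other electron carriers, mainly of ubiquinone synthesis and use, had 3 of 20 genes higher and 3 lower in SSTC3 libraries, only Gpd2 lower (-0.12) in CK1a_OV libraries, and 3 higher and 7 lower in CK1a_siRNA libraries. Coq10b, a ubiquinone-binding protein, had 63.7 and 58.6 CPM in SSTC3 libraries, against 21.0 and 26.3 CPM in DMSO libraries (1.37 ± 0.08, adjusted p = 2.00e-40). Dhodh, which passes electrons from pyrimidine synthesis to ubiquinone, fell under SSTC3 (-0.46 ± 0.08, adjusted p = 5.46e-08). With library totals 6 of these 20 genes were lower in SSTC3 libraries. Under knockdown Coq5 rose (0.58) and Coq9 fell (-0.40), both of ubiquinone synthesis. Coq2, which joins the ring and tail of ubiquinone, was higher under SSTC3 (0.33) and lower under knockdown (-0.46). Among 18 genes of the TCA cycle, 2 rose and 5 fell in SSTC3 libraries, 4 fell in CK1a_OV libraries, and 5 rose and 8 fell in CK1a_siRNA libraries. Ogdh, the E1 subunit of 2-oxoglutarate dehydrogenase, was lower under SSTC3 (-0.72 ± 0.05, adjusted p = 1.81e-31), and Idh2 was lower in CK1a_OV libraries (-0.19 ± 0.04, adjusted p = 1.02e-04) and in CK1a_siRNA libraries (-0.35 ± 0.04, adjusted p = 2.44e-10). Under SSTC3 Idh3a fell (-0.28) and Pdhb rose (0.22), Idh3g (-0.23) and Pdha1 (-0.14) fell in CK1a_OV libraries, and Mdh2 (-0.32) and Suclg2 (-0.41) fell under knockdown.

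Known regulators of respiratory and mitochondrial genes had 5 of 12 genes higher and 5 lower in SSTC3 libraries, none of 11 called in CK1a_OV libraries (smallest adjusted p = 0.175, for Polrmt), and 7 of 12 higher and 3 lower in CK1a_siRNA libraries. Nrf1, whose binding letters are marked in the promoter windows, had 47.6 and 47.1 CPM in SSTC3 libraries, against 70.8 and 60.1 CPM in DMSO libraries (-0.47 ± 0.07, adjusted p = 5.70e-10). In the knockdown set it had 66.1 and 58.6 CPM in CK1a_siRNA libraries, against 39.1 and 36.8 CPM in knockdown_control libraries (0.72 ± 0.08, adjusted p = 3.55e-12), so its transcript was lower in one and higher in the other. Gabpb1, a subunit of the ETS-family factor GABP, rose under SSTC3 (0.55 ± 0.07, adjusted p = 4.39e-13). Polrmt, the mitochondrial RNA polymerase, had 26.1 and 28.3 CPM in SSTC3 libraries, against 54.7 and 52.1 CPM in DMSO libraries (-0.97 ± 0.08, adjusted p = 7.94e-26). Ppargc1a, the coactivator PGC-1α, had 7.93 and 6.13 CPM in CK1a_siRNA libraries, against 19.6 and 19.6 CPM in knockdown_control libraries (-1.48 ± 0.14, adjusted p = 3.70e-14), and its relative Pprc1 rose (0.55).

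Mitochondrial ribosomal proteins, which translate the mitochondrially encoded subunits, had 5 of 77 genes higher and 21 lower in SSTC3 libraries, 2 and 3 in CK1a_OV libraries, and 31 higher and 14 lower in CK1a_siRNA libraries. Mrpl43 (-0.42) and Mrpl12 (-0.52) fell and Mrps6 (0.47) rose under SSTC3, and Mrpl44 (0.99), Mrps2 (0.77) and Mrps7 (0.65) rose under knockdown. With library totals 2 were higher and 28 lower in SSTC3 libraries. In CK1a_OV libraries Mrps9 rose (0.22), and Mrpl21 (-0.22) and Mrpl23 (-0.36) fell. The import machinery, which brings the nuclear-encoded subunits into mitochondria, had 2 of 23 genes higher and 10 lower in SSTC3 libraries, only Timm23 higher (0.45) in CK1a_OV libraries, and 9 higher and 5 lower in CK1a_siRNA libraries. Tomm70a, an outer-membrane receptor, had 301 and 294 CPM in SSTC3 libraries, against 399.6 and 417 CPM in DMSO libraries (-0.46 ± 0.04, adjusted p = 3.73e-25). In the knockdown set it had 339 and 325 CPM in CK1a_siRNA libraries, against 182 and 199 CPM in knockdown_control libraries (0.80 ± 0.05, adjusted p = 4.77e-23). Tomm34 rose in both (0.37 under SSTC3 and 0.56 under knockdown), Timm13 fell under SSTC3 (-0.37) and Timm29 rose under knockdown (0.89). Among 14 mitochondrial chaperones and proteases, 4 rose and 4 fell in SSTC3 libraries, 2 and 3 in CK1a_OV libraries, and 3 and 8 in CK1a_siRNA libraries. The chaperonin pair Hspe1 (0.82) and Hspd1 (0.37) rose under SSTC3, where the prohibitin gene Phb fell (-0.53). Under knockdown the protease genes Lonp1 (-0.46) and Clpp (-0.56) fell and the prohibitin gene Phb2 rose (0.48). In CK1a_OV libraries Phb (-0.23) and Hspd1 (-0.10) fell and Lonp1 rose (0.12).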

How the data were processed

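Gene expression was measured by RNA-seq of poly-A cDNA from mouse cells in 12 libraries of 6 groups. Per the submitters' processing notes, reads were aligned to mm10 with HISAT2 and assigned to genes with featureCounts, and the deposited files hold raw counts per gene, unscaled. The strand setting is not given in the sources used here, nor are versions or the annotation. Symbols and exons come from GENCODE M21, and promoter sequences from RefSeq (GRCm38.p6).

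From the counts, each comparison was fitted on its own 4 libraries with edgeR 4.0.16 in R 4.3.3 (filterByExpr, TMM scaling, robust quasi-likelihood F test, Benjamini-Hochberg adjustment over all genes tested, threshold 0.05). The fit was also run on simulated counts with 200 changed genes and the same dispersion for every gene. That run cannot show how calls behave at the uneven spread of real libraries. Standard errors are the log2 fold change divided by the root of F. Differences between effects were fitted over all 12 libraries and the 54100 features their files share. Totals of 16063627 to 19427506 counts set the precision, and with 2 libraries a group no single-gene permutation test can pass. Genes given with values were, in each comparison and complex, up to 3 called rises and falls with the largest change, the complex II subunits and genes with isoforms, with others named after their values were seen. For the related lists, the genes named are among the 3 with the smallest adjusted p in a comparison, and all mitochondrially encoded subunits were eligible. The members, lists and tests were chosen with earlier results of these data known. Copies are annotated transcripts sharing at least 97% of 160 or more bases with a member, and 16 members had one. Exons of 34 members overlapped another gene's. Alternatives were RLE size factors, library totals, other filters, a transcript-length correction, a 1.2-fold minimum, DESeq2 1.42.0, limma-voom (limma 3.58.1), a fit of all libraries, a replicate block, and leaving out each library. The values of 1 counted member are not reported here.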

Additional observations from a re-analysis of the deposited data

How the results depend on the processing

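Of the values of named genes under the 14 alternatives, 1007 kept their direction and side of the threshold, 151 lost and 15 gained the call, and Cox6a1 in SSTC3 over DMSO reversed, to -0.0225, after the length correction. Rises and falls in SSTC3 over DMSO were 7 and 19 with library totals (median -0.0450), 10 and 19 with the length correction (median -0.0464), 2 and 1 at over 1.2-fold, and 7 and 6 by DESeq2. With 1 library left out, rises ran from 9 to 15, falls from 5 to 14 and the median from -0.00674 to 0.0465. In CK1a_OV over OV_control, 2 genes rose with library totals and 1 with the length correction, and falls were 0 at over 1.2-fold, 3 by DESeq2 and 4 with all 12 libraries in the fit. With 1 library left out, rises ran from 0 to 2, falls from 4 to 13 and the median from -0.0644 to -0.000905. In CK1a_siRNA over knockdown_control, 10 rose and 6 fell at over 1.2-fold. With 1 library left out, rises ran from 15 to 19, falls from 25 to 44 and the median from -0.137 to -0.0173, the last without knockdown_control replicate 1 and the first without knockdown_control replicate 2. Differences between effects ran from 34 to 45 (SSTC3 against knockdown) and from 25 to 39 (overexpression against knockdown). Over all counts of members, by complex included, 421 values under alternatives were within 1.5 times and 119 were not. By role, core genes in SSTC3 over DMSO had 1 rise and 10 falls with library totals and 1 and 8 with the length correction. With library totals, 6 other electron carriers fell and 2 mitochondrial ribosomal proteins rose in that comparison, 4 mitochondrial ribosomal proteins rose in CK1a_OV over OV_control, and 3 TCA cycle genes rose in CK1a_siRNA over knockdown_control. The cause was not tested. Libraries with the same replicate number did not deviate together across a comparison (r of -0.016, -0.0096 and 0.0050). With the replicate number as a block, rises and falls were 15 and 10 in SSTC3 over DMSO, 0 and 11 in CK1a_OV over OV_control and 17 and 35 in CK1a_siRNA over knockdown_control, and 40 and 35 differences passed. Each group has 2 libraries, and genes under about 1 CPM, such as Cox7a1 outside the knockdown set, rest on few counts.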

Other observations

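The 2 libraries of a group differed by a small common offset over these genes. In knockdown_control libraries 67 of the 91 genes were higher in replicate 1, with a median log2 ratio of replicate 1 over replicate 2 of 0.06, and in CK1a_OV libraries 65 of 90 genes, with a median of 0.05. In SSTC3 libraries 31 of 88 genes were higher in replicate 1 (median -0.02). Over the same genes, the Spearman rho of this ratio with exonic length was -0.234 in knockdown_control libraries, -0.186 in CK1a_OV libraries, 0.237 in SSTC3 libraries and 0.204 in OV_control libraries, as a description across genes that share their libraries. The largest ratio within OV_control was that of Ndufa12, at 1.03.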
